A study of Mus musculus with 4 samples.

Results

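The genes described here are 10 neutrophil granule genes, matched by symbol among the 32285 genes of the count matrices: Ngp, Camp, Ltf, Lcn2, Mmp8, Mmp9, Wfdc21, Padi4, Mpo and Elane. All 10 were found. They were followed in lung neutrophils and other myeloid cells of 4 female FVB/NJ mice that carry the MMTV-PyMT transgene, the polyoma middle T oncogene under a mammary tumour virus promoter. All mice, the controls included, carried the transgene and a pellet that was implanted at 8 weeks of age and worn for 5 weeks, so that lungs were taken at 13 weeks. In 2 mice the pellet was a placebo, and in 2 mice it held 5 mg of tamoxifen with release over 60 days. Each perfused and enzyme-digested lung gave 1 library of 10x Genomics 5' single-cell RNA sequencing, which counts each captured RNA molecule once by its molecular identifier (UMI). The oncogene is driven in mammary epithelium, so neutrophils in these lungs are host cells of tumour-bearing mice, and the pellet acts on the whole animal.

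Neutrophils load granules in waves while they mature in the bone marrow. Primary granules are filled first, with myeloperoxidase (Mpo) and neutrophil elastase (Elane). Secondary granules follow with lactoferrin (Ltf), cathelicidin (Camp), neutrophilic granule protein (Ngp), lipocalin 2 (Lcn2) and the collagenase Mmp8. Tertiary granules come next with the gelatinase Mmp9. Most granule genes are switched off before the cell leaves the marrow, so that circulating neutrophils carry the proteins with little of the RNA. Transcription factors of the C/EBP family, C/EBP epsilon in particular, are known activators of the secondary granule genes. Padi4 encodes the peptidylarginine deiminase that citrullinates histones when neutrophils release extracellular traps, and Wfdc21 encodes a small secreted protein with a WAP domain.

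Ngp, Camp and Ltf, whose levels go together below, all lie on chromosome 9. In the GENCODE annotation of mm10, Camp lies at chr9:109847379-109849617 on the minus strand, Ngp at chr9:110419747-110423012 on the plus strand and Ltf at chr9:111019271-111042767 on the plus strand. The collagenase gene Mmp8 is on the same chromosome at chr9:7558456-7568485, plus strand. All 4 are protein-coding, with 4 exons in the longest coding transcript of Camp and of Ngp, 17 in that of Ltf and 10 in that of Mmp8. The promoters of the trio and of Mmp8 are shown because these are the members with the widest and with a narrower gap between Ngp-high and other neutrophils. Each runs from 250 bases before to 50 bases after the start given by RefSeq (GRCm38.p6), 5′ to 3′ on the gene's strand, and capitals mark each match to the C/EBP motif TTNCNNAA on either strand.
Ngp: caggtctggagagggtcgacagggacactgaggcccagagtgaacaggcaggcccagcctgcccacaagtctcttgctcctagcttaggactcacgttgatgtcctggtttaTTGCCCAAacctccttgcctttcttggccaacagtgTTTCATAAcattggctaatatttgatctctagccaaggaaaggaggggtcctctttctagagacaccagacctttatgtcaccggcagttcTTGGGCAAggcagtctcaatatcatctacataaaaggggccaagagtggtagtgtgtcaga
Camp: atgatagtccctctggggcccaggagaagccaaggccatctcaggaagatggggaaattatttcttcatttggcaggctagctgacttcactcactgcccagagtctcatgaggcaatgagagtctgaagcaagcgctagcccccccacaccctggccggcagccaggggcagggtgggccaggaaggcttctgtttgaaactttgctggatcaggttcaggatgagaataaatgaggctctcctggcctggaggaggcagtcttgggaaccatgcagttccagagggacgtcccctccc
Ltf: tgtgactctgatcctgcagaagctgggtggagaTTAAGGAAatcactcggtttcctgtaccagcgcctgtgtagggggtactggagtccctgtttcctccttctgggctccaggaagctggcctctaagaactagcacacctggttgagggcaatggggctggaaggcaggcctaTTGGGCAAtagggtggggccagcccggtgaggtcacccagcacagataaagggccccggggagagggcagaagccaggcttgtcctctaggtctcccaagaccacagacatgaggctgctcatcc
Mmp8: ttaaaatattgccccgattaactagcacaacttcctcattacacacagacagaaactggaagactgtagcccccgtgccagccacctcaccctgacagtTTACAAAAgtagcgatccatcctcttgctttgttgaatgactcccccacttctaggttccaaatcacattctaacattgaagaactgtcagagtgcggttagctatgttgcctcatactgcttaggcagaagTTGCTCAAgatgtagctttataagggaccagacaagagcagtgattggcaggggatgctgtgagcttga

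The Ngp window holds 3 matches, which begin 138, 102 and 11 bases before the RefSeq start. For Ngp (window chr9:110419558-110419857), Camp (chr9:109849407-109849706) and Ltf (chr9:111019042-111019341) that start lies inside the gene as GENCODE places it. Their windows so reach less far upstream of the GENCODE gene. The Ltf window holds 2, at 217 and 75 bases before the start, and the Mmp8 window holds 2, at 151 and 19 bases. The letters TTGGGCAA stand in both the Ngp and the Ltf window, as matches on the opposite strand. The Camp window holds none, which says only that these letters are absent from this window. Promoters were found for 8 of the 10 members, and 4 of the 8, the fourth being Lcn2, hold the motif, against 40.7% of all 32851 promoters of the table. The ETS motif GAGGAAG, searched on both strands, is in 4 of the 8 (Lcn2, Mmp8, Mpo and Elane) and in 13.6% of all promoters. Mmp9 and Wfdc21 had no entry.

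After filters, the placebo libraries kept 7480 and 6676 cells and the tamoxifen libraries 6849 and 7472, out of libraries of 32646505 to 37285982 UMIs. Libraries shared 61 to 74 cell barcodes per pair. Cells were clustered without the granule genes, and clusters were named from marker lists that held none of the 10 members, with "-like" added because the name rests on markers alone. There were 2316 and 3702 neutrophil-like cells with placebo and 2349 and 2983 with tamoxifen. All 14 neutrophil markers were detected there in each mouse, and together made up 107524 to 147328 CPM. CPM here is the UMIs of a gene over all UMIs of the same cell population in the same mouse, in the usual unit. The same sum was 60.8 to 192.7 CPM in B cell-like cells and 722 to 7265 CPM in alveolar macrophage-like cells. These 14 markers also named the clusters, so the sums describe the class and are no separate support for its name. Placebo 1 was the shallowest library for these cells, with a median of 2117.5 UMIs per cell, and placebo 2 the deepest, with 3826, while the tamoxifen mice had 2864 and 2600. The mouse is the replicate throughout, with n = 2 per group, and no label says whether litters or days were shared.

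The granule genes differed in where their RNA was found. Ngp, Camp and Ltf had 93.5%, 92.7% and 92.0% of their UMIs in neutrophil-like cells, and nearly all of that in a small group of cells. Lcn2, Mmp8, Mmp9 and Wfdc21, at 89.7%, 89.5%, 85.1% and 85.3%, were spread over many neutrophils. Padi4 had 62.1% of its UMIs in neutrophil-like cells, and 879 of its 2789 UMIs lay in clusters left unnamed. Mpo and Elane were almost without RNA: all kept cells together held 19 UMIs of Mpo and 2 of Elane. In neutrophil-like cells Mpo had 3 UMIs, in 3 cells of placebo 2, and Elane had none in any mouse. For Elane a count of 0 allows a share of cells with a UMI of up to 0.13% in placebo 1 and 0.081% in placebo 2, and of up to 0.128% and 0.101% in the tamoxifen mice. These limits, like the intervals below, cover counting error only. Both primary granule genes were under the count filter in every population and entered no edgeR test. The exact permutation test of the share of cells with a UMI gave p = 1.00 for each. With no such cell for Elane and cells of placebo 2 alone for Mpo, that test could give no other value and says nothing on either gene.

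Neutrophil-like cells were split at 3 Ngp UMIs. Cells at or above it numbered 24 of 2316 in placebo 1, which is 1.04% (95% Clopper-Pearson interval 0.665 to 1.54%), and 283 of 3702 in placebo 2, which is 7.64% (6.81 to 8.55%). In the tamoxifen mice they numbered 74 of 2349, or 3.15% (2.48 to 3.94%), and 69 of 2983, or 2.31% (1.80 to 2.92%). Both tamoxifen shares lay between the placebo shares, so the groups overlap. The difference of means was -1.61 percentage points, with an exact two-sided permutation p of 1.00, where 2 mice against 2 cannot give less than 0.33. Without placebo 2 the difference turned to 1.70 percentage points. With each cell thinned to 1000 UMIs, which left out 182, 41, 74 and 75 shallower cells, the shares were 0.703% and 3.50% with placebo and 1.63% and 0.997% with tamoxifen, in the same order.

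**Figure D1:**
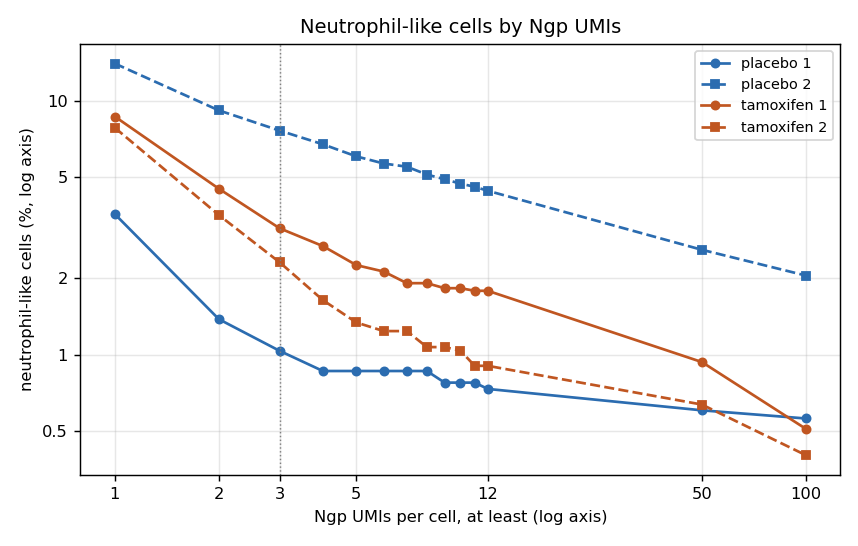
Share of neutrophil-like cells (percent, log axis) with at least the given number of Ngp UMIs (log axis) in each mouse; the dotted line is the split at 3 UMIs. Placebo 2 stands highest throughout, and placebo 1 is lowest at 3 UMIs (1.04%) but lies above both tamoxifen mice at 100 UMIs.

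Ngp was an all-or-little gene in these lungs. No Ngp UMI was found in 96.4% and 86.0% of neutrophil-like placebo cells and in 91.3% and 92.2% of tamoxifen cells, while the highest single cells held 1321, 1811, 1334 and 914 Ngp UMIs. Just outside the split, with 2 UMIs, stood 8 and 57 cells with placebo and 32 and 37 with tamoxifen, and just inside, with 3 UMIs, 4 and 33 with placebo and 11 and 20 with tamoxifen. The median Ngp count of the cells inside was 118 for placebo 1 and 17 for placebo 2, against 14 and 7 with tamoxifen. Cells with 100 or more Ngp UMIs were 13 of the 24 in placebo 1 (54.2%) but 76 of 283 in placebo 2 (26.9%), and 12 of 74 (16.2%) and 12 of 69 (17.4%) with tamoxifen. The Ngp-high cells of placebo 1 were thus few and mostly very high.

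Camp and Ltf marked the top of the same range. Camp was detected in 14 of 24 and 144 of 283 Ngp-high placebo cells (58.3% and 50.9%) and in 33 of 74 and 24 of 69 tamoxifen cells (44.6% and 34.8%). In placebo 2 the Ngp-high cells with Camp had a median of 118 Ngp UMIs and those without it a median of 6. In tamoxifen 2 the same medians were 99.5 and 4. Ltf was detected in 58.3% and 35.3% of Ngp-high placebo cells and in 32.4% and 26.1% of tamoxifen cells, and there too the cells with it had the higher Ngp counts, with medians of 221.5 against 8 in placebo 2.

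The Ngp-high cells held nearly all the RNA of the secondary granule trio. They were at most 7.64% of neutrophil-like cells and at most 16.9% of their UMIs, yet held 96.4% to 99.2% of Ngp, 99.4% to 99.7% of Camp and 98.9% to 99.6% of Ltf over the 4 mice. For Ngp this follows from the split, while Camp and Ltf had no part in it. Padi4 had 40.5% to 75.5% of its UMIs there, Lcn2 27.9% to 59.3% and Mmp8 28.1% to 54.6%. Wfdc21, at 14.0% to 35.3%, and Mmp9, at 8.71% to 34.7%, lay mostly in the other neutrophils. For each of these 5 genes the highest share was that of placebo 2, the mouse with the most Ngp-high cells.

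**Figure D2:**
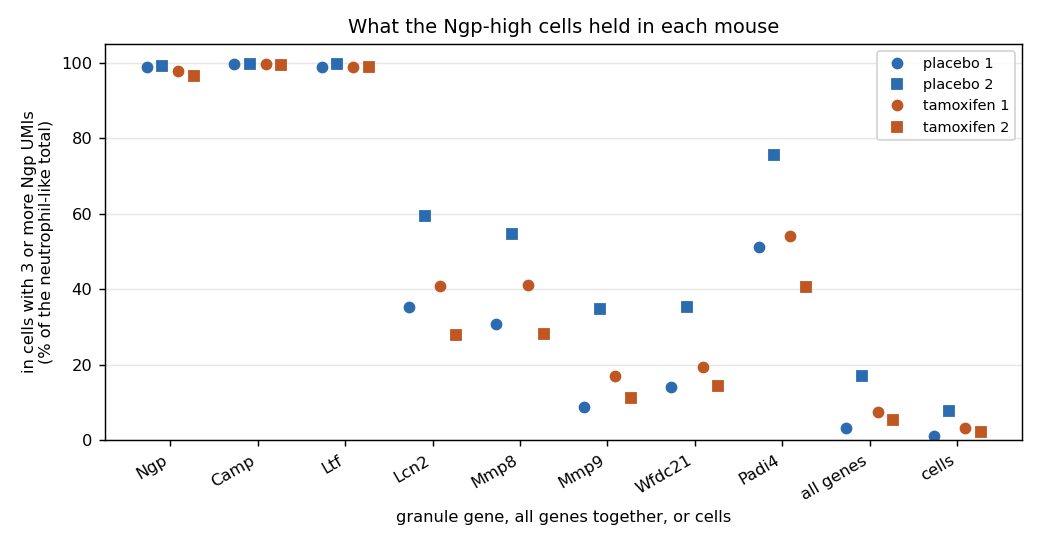
Percent of the neutrophil-like UMIs of each granule gene, of all genes and of cells that fell to cells with 3 or more Ngp UMIs, 1 point per mouse. Ngp, Camp and Ltf lie above 96% in all mice, while the other 5 genes spread from 8.71% to 75.5% with placebo 2 highest.

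As a description of the split, with no test, levels in the Ngp-high cells were set against those in the rest of the same mouse on the log2(CPM + 1) scale. Camp differed by 12.67 and 10.37 with placebo and by 10.78 in each tamoxifen mouse, and Ltf by 11.04, 9.99, 9.72 and 9.90 in the same order. Padi4 differed by 4.84, 3.85, 3.80 and 3.52, Lcn2 by 4.00, 2.84, 3.10 and 2.76, and Mmp8 by 3.70, 2.56, 3.10 and 2.77. Wfdc21 (2.26, 1.42, 1.58 and 1.55) and Mmp9 (1.49, 1.38, 1.34 and 1.15) had the narrowest gaps. In each of these 7 genes the gap was widest in placebo 1. Beyond the members, ranked by the narrowest gap over the 4 mice, the leading genes were Chil3, a chitinase-like protein of immature neutrophils and alveolar macrophages (7.14, 6.98, 6.22 and 5.59), and Cybb, the large subunit of the phagocyte oxidase (6.09, 5.28, 4.58 and 5.22). Capg, Cd177, Anxa3 and Serpinb1a came next, and in tamoxifen 1 the gaps of Serpinb1a (4.70) and Capg (4.60) were wider than that of Cybb.

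Of 21 secondary and tertiary granule genes with at least 5 CPM in either part, 17 were higher in the Ngp-high cells of all 4 mice and 2 lower, with a median log2 difference of 1.23. Of all 6226 genes at that level 991 were higher and 2727 lower in all 4 mice, with a median of -0.38. Lyz2, lysozyme, differed by 3.96, 3.12, 2.81 and 2.58. Of 12 genes of mature neutrophils 10 were lower in all 4 mice, a direction that the 2727 of 6226 genes shared, among them Cxcr4, which holds ageing neutrophils in the marrow (-2.62, -1.61, -2.35 and -1.39), and Il1b. Retnlg and Fpr2 were the exceptions, higher in all 4. Of 7 granulocyte transcription factors 5 were lower in all 4 mice (Cebpa, Cebpb, Cebpd, Spi1 and Runx1) and 2 were higher (Cebpe and Klf5), with a median of -0.78. Genes near 5 CPM rest on few UMIs in the 24 Ngp-high cells of placebo 1, where a count of 0 allows up to 17.2 CPM. Cebpa was at 0 there and at 5.32, 3.49 and 2.06 CPM in the other Ngp-high parts, against 4.35 to 6.23 CPM in the rest. The counts of genes lower in all 4 mice, the 2727 of 6226 included, hold such genes. Cebpe, the C/EBP factor of granule genes, was at 108.8 and 34.2 CPM in the Ngp-high placebo cells and at 27.9 and 10.3 CPM in the tamoxifen ones, against 3.59 to 5.98 CPM in the rest, so its gap was widest in placebo 1 (4.49) and narrow in tamoxifen 2 (0.69). Of 12 cycling genes 9 were under 5 CPM in both parts, among them Mki67 (0.582 and 3.24 CPM) and Top2a (0.0831 and 0.115 CPM). Of the others Stmn1 (1.62 and 5.03 CPM) and Tubb5 (4.52 and 17.0 CPM) were lower in the Ngp-high cells of all 4 mice, and Hmgb2, a chromatin protein, was at 1132 and 1073 CPM. The primary granule list, beside Mpo and Elane, had no common direction. Prtn3 (2.18 and 2.89 CPM), Ctsg and Ms4a3 were at or near 0, Serpinb1a (257.7 and 8.56 CPM) and Ctsc (24.4 and 10.2 CPM) were higher in all 4 mice, Srgn (5270 and 10856 CPM) was lower in all 4, and Prss57 (3.98 and 6.80 CPM) varied.

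The comparison of tamoxifen with placebo was made first over all neutrophil-like cells, on counts summed per mouse. Levels are TMM-scaled CPM. Camp, the cathelicidin, was at 576 and 845 CPM with placebo and at 309 and 238 CPM with tamoxifen. Both tamoxifen values lay below both placebo values. The group means were 710 ± 190 and 274 ± 50.8 CPM (SD, n = 2). On the log2 scale the fold change was -1.38 ± 0.22 (SE; edgeR unadjusted p 0.000286, adjusted p 0.998 over 8501 genes). Ltf, which binds iron, was at 293 and 649 CPM with placebo and at 232 and 137 CPM with tamoxifen (-1.36 ± 0.38, SE; edgeR adjusted p 0.998). Ngp, related to the cathelicidins, was at 1102 and 2103 CPM with placebo and at 954 and 649 CPM with tamoxifen (-1.0 ± 0.31, SE; edgeR adjusted p 0.998). The tamoxifen values of these genes did not overlap the placebo values either.

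The other 5 tested members overlapped between the groups. Lcn2, which withholds iron-bearing siderophores from bacteria, was at 1574 and 3342 CPM with placebo and at 2184 and 1887 CPM with tamoxifen (log2 fold change -0.27 ± 0.31, SE). Wfdc21 was at 909 and 2280 CPM with placebo and at 2140 and 1660 CPM with tamoxifen (0.25 ± 0.37, SE). In both genes the placebo mice were the extremes and the tamoxifen mice lay between them. Mmp8 was at 143 and 409 CPM with placebo and at 233 and 236 CPM with tamoxifen (-0.24 ± 0.40, SE), and Padi4 at 23.3 and 56.0 CPM and at 37.0 and 33.5 CPM (-0.22 ± 0.34, SE). Mmp9 was at 416 and 544 CPM with placebo and at 573 and 475 CPM with tamoxifen (0.12 ± 0.18, SE).

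No member passed, and 0 of the 8501 genes did (0%). Unadjusted p under 0.05 was reached by 3 of the 8 members tested, Ngp, Camp and Ltf, against 2.33% of all genes. Both tamoxifen mice lay below both placebo mice for 3 of the 8, the same trio, against 16.6% of all genes. Calls depended on the mice and on the tool. Without placebo 1, Camp, Ltf, Ngp and Mmp8 passed as lower (0.411% of all genes), and without tamoxifen 1, Camp and Ltf (0.108%), where the lone mouse of a group is assumed to vary like the others. DESeq2 called Camp alone (0.00598%; adjusted p 3.29e-06), and without a filter on low counts edgeR called Camp, Ltf and Ngp (0.263%). Without placebo 2 or tamoxifen 2 no member passed. Over the 4 fits that each left out 1 mouse, the log2 fold change ran from -1.60 to -1.07 for Camp, from -1.80 to -0.66 for Ltf and from -1.37 to -0.45 for Ngp, each smallest without placebo 2. The adjusted p of Camp ran from 3.40e-15 to 1.00 over the alternatives tried. When the granule genes entered the clustering, a cluster of 133 cells led by Camp, Ltf and Ngp stayed unnamed, and in the neutrophil-like cells without it the log2 fold changes turned to 0.39 for Camp, 0.13 for Ltf and 0.10 for Ngp. The share of Ngp-high cells also differed between these mice (1.04% and 7.64%, 3.15% and 2.31%), and its part in these levels was not tested.

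**Figure D3:**
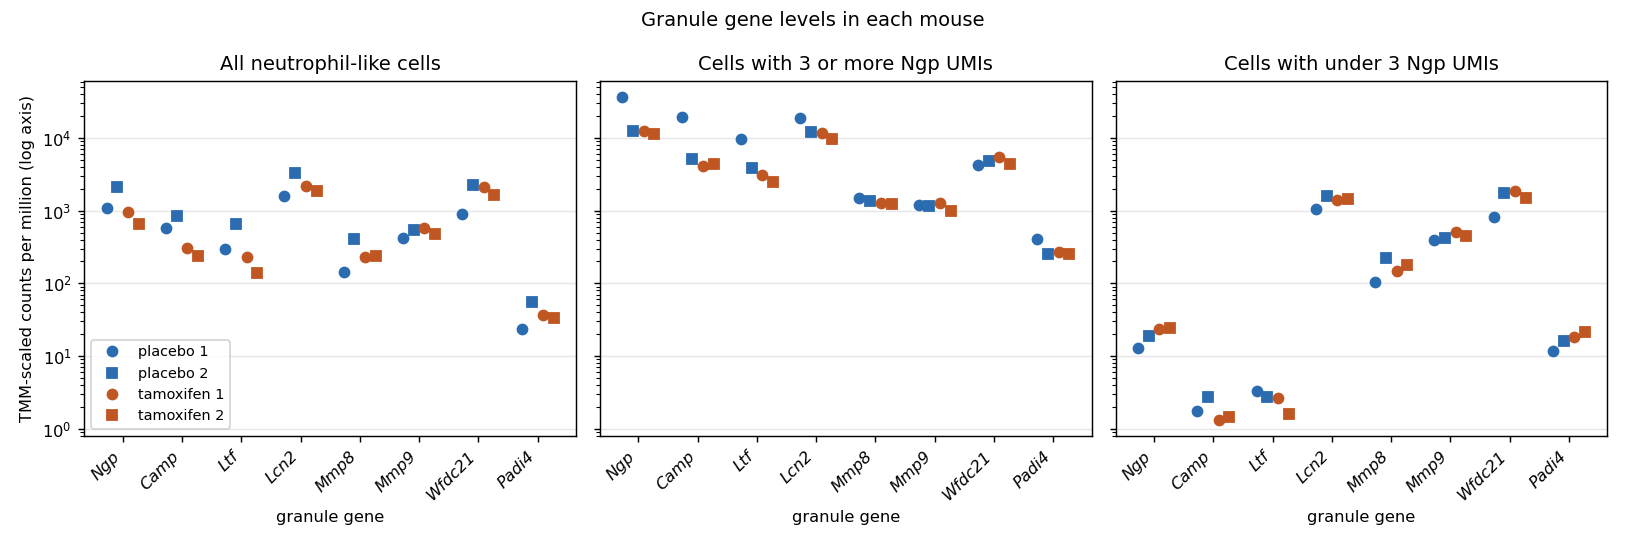
TMM-scaled CPM (log axis) of the 8 granule genes with enough counts, in all neutrophil-like cells, in those with 3 or more Ngp UMIs and in the rest, with 1 point per mouse. Ngp, Camp and Ltf drop by orders of magnitude outside the Ngp-high cells (Camp 1.31 to 2.76 CPM), and placebo 1 stands apart for them within the Ngp-high cells.

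Within the Ngp-high cells the level of the trio was set by placebo 1. Ngp, which made the split and so has no test here, was at 36626 and 12692 CPM with placebo and at 12480 and 11507 CPM with tamoxifen. Camp was at 19301 and 5121 CPM with placebo and at 4124 and 4345 CPM with tamoxifen (log2 fold change -1.52 ± 0.43, SE; edgeR adjusted p 1.00). Ltf was at 9752 and 3934 CPM with placebo and at 3068 and 2486 CPM with tamoxifen (-1.29 ± 0.34, SE; edgeR adjusted p 0.958). Placebo 2 lay close to the tamoxifen mice in all of the trio. Without placebo 1 the log2 fold changes were -0.27 for Camp, -0.50 for Ltf and -0.08 for Ngp.

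Mmp8, Mmp9 and Wfdc21 were steadier across mice in these cells. Mmp8 was at 1482 and 1358 CPM with placebo and at 1282 and 1221 CPM with tamoxifen (-0.18 ± 0.21, SE). Mmp9 was at 1217 and 1149 CPM with placebo and at 1296 and 982 CPM with tamoxifen (-0.05 ± 0.23, SE). Wfdc21 was at 4274 and 4901 CPM with placebo and at 5548 and 4386 CPM with tamoxifen (0.11 ± 0.24, SE). The groups overlap in the last pair, and in Mmp8 the gap between them was smaller than its SE. Lcn2 was at 18653 and 12046 CPM with placebo and at 11935 and 9700 CPM with tamoxifen (-0.50 ± 0.27, SE), and Padi4 at 401 and 257 CPM and at 269 and 250 CPM (-0.27 ± 0.26, SE). For both, placebo 1 was again the highest mouse.

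No member passed in the Ngp-high cells, where 1 of 3331 genes did (0.03%). Unadjusted p under 0.05 was reached by 2 of the 7 members tested, Camp and Ltf, against 1.68% of all genes, and both tamoxifen mice lay below both placebo mice for 4 of the 7 (Camp, Ltf, Lcn2 and Mmp8), against 15.3% of all genes. The median log2 fold change was -0.27 over the 7 members and -0.01 over all genes tested. Without a filter on low counts Camp passed (0.0677% of all genes), and without placebo 2 Camp and Ltf passed (1.34%), so that the call then rested on the 24 cells of placebo 1. With the granule genes in the clustering, and the unnamed cluster so left out, Camp turned to 1.10 and Ltf to 1.07.

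The gene that passed was Chil3, which is on the list of secondary and tertiary granule genes. It was at 1155 and 612 CPM with placebo and at 184 and 235 CPM with tamoxifen, or 884 ± 384 and 209 ± 36.0 CPM (SD, n = 2). The log2 fold change was -2.04 ± 0.30 (SE, edgeR adjusted p 0.0259). Cells with 100 or more Ngp UMIs made up 54.2% and 26.9% of the Ngp-high placebo cells and 16.2% and 17.4% of the tamoxifen ones. The mice stood in the same order for Chil3, and the part of this mix of cells in the Chil3 values was not tested. Chil3 was detected in 11 of 24 and 106 of 283 placebo cells (45.8% and 37.5%) and in 9 of 74 and 14 of 69 tamoxifen cells (12.2% and 20.3%). The call was lost with a replicate block (adjusted p 0.663), with equal cells per library (0.104) and when unnamed clusters that scored as neutrophil were added, without (0.0708) or with (0.0881) the granule genes in the clustering. In these the log2 fold change stayed between -1.84 and -1.99. With the granule genes in the clustering and no unnamed clusters added, no gene passed in the Ngp-high cells either. Since Chil3 is also a marker of alveolar macrophages, their other 9 markers were summed in the Ngp-high cells, where they made up 40.1 and 27.9 CPM with placebo and 12.2 and 65.8 CPM with tamoxifen, against 10805 to 14489 CPM in alveolar macrophage-like cells. In the first mouse of each group 7 of the 9 were at 0, and in the other 3 of the 9, with Marco and Krt79 at 0 in all 4 mice. In Ngp-high cells without a UMI of any of the 9 there remained 166 and 1427 of 187 and 1867 Chil3 UMIs with placebo and 86 and 89 of 102 and 111 with tamoxifen. The alveolar macrophage list was among those that named the clusters, so low values of it here follow in part from the naming. The source of the Chil3 UMIs was not tested.

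Of the other 20 tested genes on that list none passed. Unadjusted p under 0.05 was reached by Chil3, Orm1, Cybb and Cd177 as lower and by Olfm4 as higher, out of 21, with a median log2 fold change of -0.19. Orm1, an acute phase glycoprotein, was at 86.5 and 78.4 CPM with placebo and at 41.5 and 14.8 CPM with tamoxifen (-1.47 ± 0.39, SE). Olfm4, a granule glycoprotein of a neutrophil subset, was at 161 and 358 CPM with placebo and at 901 and 294 CPM with tamoxifen (1.08 ± 0.42, SE), and its groups overlap. Of the other listed genes 0 of 3 primary granule genes, 0 of 5 transcription factors, 0 of 12 mature neutrophil genes and 0 of 1 cycling gene passed, with medians of -0.76, 0.18, 0.17 and 0.11.

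**Figure D4:**
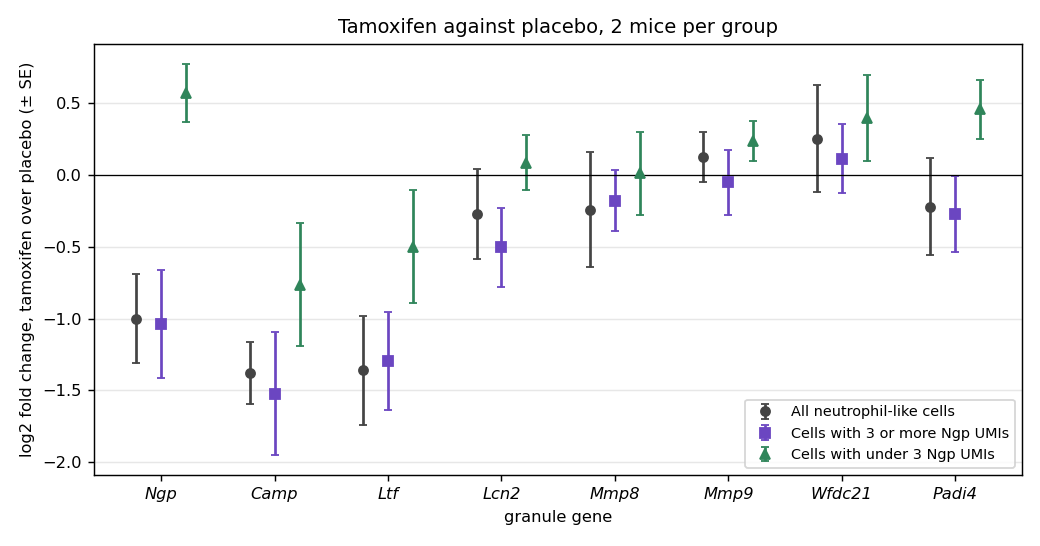
Log2 fold change of tamoxifen over placebo with its SE (bars) for 8 granule genes in all neutrophil-like cells, in Ngp-high cells and in the rest, from 2 mice per group. Ngp, Camp and Ltf lie between -1.0 and -1.52 in the first pair of populations, and Ngp lies at 0.57 in the rest; Ngp in the last pair is a description, since it made the split.

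In the neutrophils with under 3 Ngp UMIs the trio was barely present. Camp was at 1.72 and 2.76 CPM with placebo and at 1.31 and 1.46 CPM with tamoxifen, from 9, 43, 9 and 12 UMIs (log2 fold change -0.76 ± 0.43, SE). Ltf was at 3.25 and 2.76 CPM with placebo and at 2.63 and 1.59 CPM with tamoxifen, from 17, 43, 18 and 13 UMIs (-0.50 ± 0.39, SE). Ngp, capped at 2 UMIs per cell by the split, was at 12.8 and 18.9 CPM with placebo and at 23.6 and 24.6 CPM with tamoxifen. Its log2 fold change, without a test, was 0.57 ± 0.20 (SE), opposite in sign to that in the Ngp-high cells. Ngp was detected in 2.57% and 6.93% of these cells with placebo and in 5.71% and 5.66% with tamoxifen, and after thinning to 1000 UMIs in 1.28% and 1.48% and in 1.45% and 1.44%. In CD4 T cell-like cells, which should lack Ngp, it was detected in 0 and 3 placebo cells and in 3 and 0 tamoxifen cells. That was at most 1.06% of the CD4 T cell-like cells of a mouse. Their median depths were 2263, 3534, 2757 and 2737 UMIs, against 2105.5, 3640, 2814 and 2570 in the neutrophils with under 3 Ngp UMIs.

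Lcn2, Wfdc21, Mmp8 and Mmp9 were plain in these cells, and Padi4 was lower. Wfdc21 was at 814 and 1752 CPM with placebo and at 1870 and 1507 CPM with tamoxifen (log2 fold change 0.39 ± 0.30, SE) and was detected in 54.7% and 77.2% and in 78.0% and 72.0% of cells. Lcn2 was at 1061 and 1617 CPM with placebo and at 1400 and 1442 CPM with tamoxifen (0.08 ± 0.19, SE), and Mmp8 at 103 and 221 CPM and at 149 and 180 CPM (0.01 ± 0.29, SE). For these genes the placebo mice were the lowest and the highest or nearly so. Mmp9 was at 395 and 422 CPM with placebo and at 516 and 447 CPM with tamoxifen (0.24 ± 0.14, SE). Padi4 was at 11.9 and 16.3 CPM with placebo and at 18.4 and 21.1 CPM with tamoxifen (0.46 ± 0.20, SE; edgeR unadjusted p 0.051). Both tamoxifen mice lay above both placebo mice for Mmp9 and Padi4.

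No member passed among these cells, and 0 of 8420 genes did (0%). None of the 7 members tested had an unadjusted p under 0.05, which 3.06% of all genes had. Both tamoxifen mice lay above both placebo mice for 2 of the 7 against 13.9% of all genes, and below them for 2 of the 7, Camp and Ltf, against 16.7%. Without placebo 2, Wfdc21 passed as higher (0.267% of all genes; log2 fold change 1.06), since placebo 1 was then its only control. Of 21 secondary and tertiary granule genes none passed, with a median of 0.15. Olfm4 was at 53.9 and 58.0 CPM with placebo and at 99.4 and 86.8 CPM with tamoxifen (0.73 ± 0.13, SE; edgeR unadjusted p 0.000394, adjusted p 1.00), and Lyz2 at 712 and 493 CPM and at 817 and 972 CPM. No gene of the primary granule, transcription factor, mature neutrophil or cycling lists passed, with medians of 0.16, 0.14, 0.13 and -0.36 against -0.02 over all genes.

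Macrophage-like, monocyte-like and conventional dendritic-like cells were pooled as other myeloid-like cells, 1082 and 660 with placebo and 825 and 982 with tamoxifen. The trio was close to absent there: Camp had 0, 3, 3 and 17 UMIs, Ltf 0, 4, 2 and 8, and Ngp 4, 55, 87 and 27, where single cells gave 48 of the 55 and 78 of the 87. Wfdc21 was at 131 and 435 CPM with placebo and at 225 and 206 CPM with tamoxifen (log2 fold change -0.39 ± 0.48, SE). Lcn2 was at 9.40 and 86.6 CPM with placebo and at 56.7 and 37.1 CPM with tamoxifen (0.00 ± 0.80, SE). Mmp8 was at 6.82 and 25.9 CPM with placebo and at 13.7 and 10.0 CPM with tamoxifen (-0.42 ± 0.56, SE). In these the placebo mice were the extremes and the tamoxifen mice lay between. Mmp9 was at 33.3 and 30.3 CPM with placebo and at 34.8 and 23.9 CPM with tamoxifen (-0.12 ± 0.20, SE).

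No member passed in other myeloid-like cells, where 0 of 11110 genes did (0%), and none of the 5 members tested had an unadjusted p under 0.05, against 3.38% of all genes. Without placebo 1, Lcn2, Mmp8 and Wfdc21 passed as lower with tamoxifen (0.802% of all genes; Lcn2 -0.89, Mmp8 -1.13 and Wfdc21 -1.02), and without placebo 2, Lcn2, Ngp and Wfdc21 passed as higher (0.945%; Lcn2 2.31, Ngp 3.99 and Wfdc21 0.72). The 14 neutrophil markers, all detected, summed to 1253 and 5958 CPM in these cells with placebo and to 4204 and 4234 CPM with tamoxifen, also lowest in placebo 1 and highest in placebo 2, and their part in these values was not tested. Of 12 cycling genes none passed, though Mki67, Ccnb2, Tyms, Mcm5, Stmn1 and Pclaf had an unadjusted p under 0.05, with a list median of -0.78.

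Outside neutrophils, 5 members were measurable in other cell classes. Wfdc21 was at 736 and 1333 CPM in placebo and 1080 and 1153 CPM in tamoxifen alveolar macrophage-like cells, in 69.5% and 85.0% and in 74.2% and 73.0% of the cells. In the same cells the 14 neutrophil markers summed to 722 and 7265 CPM with placebo and to 5423 and 5167 CPM with tamoxifen. Both were lowest in placebo 1 and highest in placebo 2, and the part of neutrophil RNA in the Wfdc21 values was not tested. Lcn2 was at 714 and 623 CPM in placebo and 618 and 580 CPM in tamoxifen alveolar type 2-like cells, the surfactant makers, with a UMI in 46.2% to 53.0% of them. The lowest placebo value of Lcn2 lay just above the higher tamoxifen value in that class. Mmp8 was at 61.8 and 167 CPM in placebo and 60.2 and 58.5 CPM in tamoxifen classical monocyte-like cells. Mmp9 was at 131 and 51.3 CPM in placebo and 80.9 and 41.5 CPM in tamoxifen interstitial macrophage-like cells. Ltf, which airway glands also secrete, was in 5.88% and 6.45% of placebo and 4.35% and 9.91% of tamoxifen club or secretory-like cells, though a single cell gave 118 of the 137 UMIs of tamoxifen 2. These classes were not tested for the members. In CD4 T cell-like cells, for comparison, Wfdc21 was in 0.125% and 4.59% of placebo and 0.846% and 0.616% of tamoxifen cells. Lcn2 was in 0.125% and 3.53% of placebo and 0.423% and 0.205% of tamoxifen cells. Mmp8 was there at 0 and 10.8 CPM with placebo and at 0.505 and 0.722 CPM with tamoxifen, and Mmp9 at 3.74 and 20.5 CPM and at 1.52 and 0.722 CPM. Ltf had 1 UMI, in placebo 2, which was the highest mouse for all of these genes. Single CD4 T cell-like cells of placebo 2 gave 36 of its 87 Wfdc21 UMIs and 17 of its 41 Lcn2 UMIs. The 14 neutrophil markers summed to 6650 CPM in these cells of placebo 2, against 202 to 412 CPM in the other mice. The source of these UMIs was not tested.

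**Figure D5:**
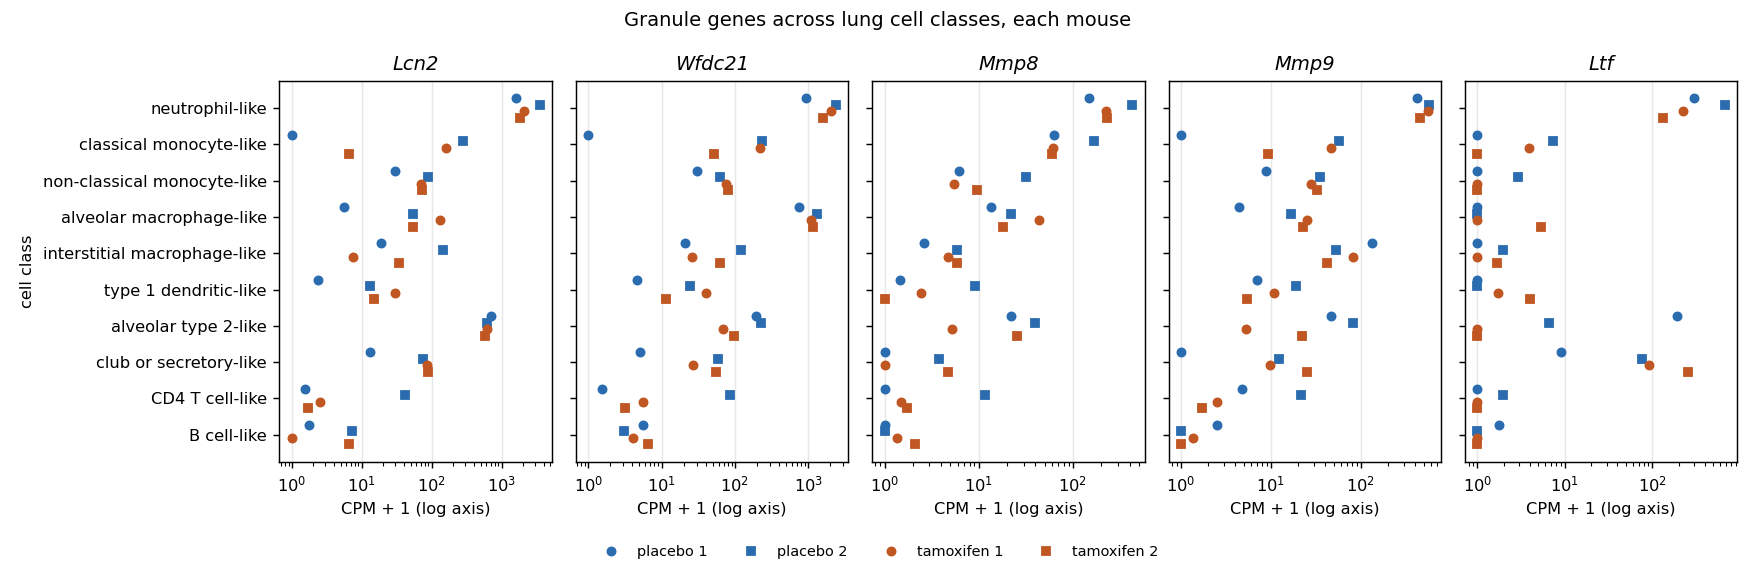
CPM + 1 (log axis) of 5 granule genes in 10 cell classes, with 1 point per mouse. All are highest or among the highest in neutrophil-like cells, with Wfdc21 also at 736 to 1333 CPM in alveolar macrophage-like cells and Lcn2 at 580 to 714 CPM in alveolar type 2-like cells.

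Cells with 3 or more Ngp UMIs numbered 491 in all, of which 450 were neutrophil-like, 22 lay in unnamed clusters and 5 in other myeloid-like classes. The remaining 14 stood alone or in small numbers in classes that should not make Ngp, such as 3 alveolar fibroblast-like cells of placebo 2 with up to 666 Ngp UMIs in a cell. Across 21 classes in 4 mice (84 points that share libraries and depth), the genes whose log2(CPM + 1) followed Ngp most closely were Camp (Pearson r = 0.836), Ltf (0.725), Ceacam10 (0.722), Gm38575 (0.677) and Mgam (0.671). Among the members Mmp8 ranked 7 of all genes (0.660), Lcn2 14 (0.633), Padi4 18 (0.625), Wfdc21 34 (0.591) and Mmp9 36 (0.590), while Mpo (-0.01) and Elane (-0.07) did not follow it. Some of the points rest on stray cells. In CD8 T cell-like cells of placebo 1, Ngp was at 604, Camp at 349 and Ltf at 199 CPM, each from 2 cells with a UMI. The part of such points in these correlations was not tested.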

How the data were processed

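The files as deposited by the authors give whole-number UMI counts, without normalization, for each barcode and gene, from Cell Ranger. The submitters' processing notes name version 8.0.1 and the mm10 genome, while the file headers name 5.0.0. Cells with under 250 genes or over 15% mitochondrial UMIs were left out, as were cells with a Scrublet score over 0.25, a fixed score set because Scrublet's automatic one marked 0 to 160 cells per library. Cells were clustered (scanpy 1.11.5, 2000 variable genes without granule genes, 40 components, leidenalg 0.10.2 at resolution 4) and the 83 clusters were named from 33 marker lists. Of the 13 clusters left unnamed, 6 with 1420 cells scored best for neutrophil and entered only an alternative. Names were rebuilt here from markers, so class sizes may differ from the study's.

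UMIs were summed per mouse and population and tested with edgeR 4.0.16 (R 4.3.3; TMM, filterByExpr, quasi-likelihood F test, Benjamini-Hochberg adjustment over all genes tested, threshold 0.05), with DESeq2 1.42.0 as an alternative. The edgeR test of each population was checked on simulated counts with planted changes, while DESeq2 and the permutation test were not checked so. Shares of cells were compared with an exact permutation test over mice (scipy 1.17.1), also after thinning cells to 1000 UMIs. The named genes are the 10 members, genes of 5 listed groups, the widest gaps between the Ngp-high cells and the rest, and any gene called in a test. The members and lists were chosen with earlier results of these data known, and the addition of unnamed clusters and the crossed block were chosen after the data were seen. Mouse numbers were not taken as pairs: deviations of equal numbers correlated at -0.178 in neutrophil-like, 0.0036 in Ngp-high, -0.159 in other neutrophil-like and 0.109 in other myeloid-like cells.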

Additional observations from a re-analysis of the deposited data

Results flagged for a closer look

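Ngp was at a log2 fold change of -1.04 between tamoxifen and placebo in the neutrophil-like cells with 3 or more Ngp UMIs and at 0.57 in those with under 3. It was noted because every tamoxifen mouse lay below both placebo mice in the first and above both in the second. The difference was not tested, since Ngp itself made the split, and without placebo 1 the first value was -0.08.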

How the results depend on the processing

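With 2 mice per group, single mice decided most values. Leaving out 1 mouse moved the member calls from 0 to 4 in neutrophil-like cells, 0 to 2 in Ngp-high cells, 0 to 1 in the rest and 0 to 3 in other myeloid-like cells. The calls over all genes ran from 0 to 37, 4 to 47, 0 to 122 and 0 to 109. The difference in the share of Ngp-high cells ran from -4.91 to 1.70 percentage points. In neutrophil-like cells the log2 fold changes ran from -1.60 to -1.07 for Camp, -1.80 to -0.66 for Ltf, -1.37 to -0.45 for Ngp, -0.69 to 0.38 for Lcn2, -0.78 to 0.72 for Mmp8, -0.031 to 0.34 for Mmp9, -0.24 to 1.07 for Wfdc21 and -0.64 to 0.60 for Padi4. In Ngp-high cells they ran from -0.24 to 0.15 for Mmp9, -0.040 to 0.29 for Wfdc21 and -0.61 to 0.016 for Padi4. In the rest they ran from -0.17 to 0.43 for Lcn2, -0.41 to 0.68 for Mmp8 and -0.035 to 1.06 for Wfdc21. In other myeloid-like cells they ran from -0.29 to 3.99 for Ngp, -0.89 to 2.31 for Lcn2, -1.13 to 0.79 for Mmp8, -0.41 to 0.12 for Mmp9 and -1.02 to 0.72 for Wfdc21.

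DESeq2 called 1 member and 1 gene in neutrophil-like and 1 gene in other myeloid-like cells. Without a filter on low counts 3 members and 44 genes were called in neutrophil-like cells, 1 and 8 in Ngp-high cells, 30 genes in the rest and 78 in other myeloid-like cells. With the replicate number as a block, 0 members were called in any population, 0 genes in Ngp-high cells and 1 in other myeloid-like cells. A crossed replicate block called 2 members and 4 genes in neutrophil-like cells and 0 genes in the rest. In Ngp-high cells 3 genes were called at a split of 5 Ngp UMIs, and 0 with the granule genes in the clustering, with the unnamed clusters added (with or without those genes) and with equal cells per library.

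With the granule genes in the clustering, Ngp turned to 0.10, Camp to 0.39, Ltf to 0.13 and Padi4 to 0.18 in neutrophil-like cells, and Camp to 1.10 and Ltf to 1.07 in Ngp-high cells, where the 133-cell cluster led by these genes was left out. With it and the other unnamed clusters added, Camp was at -1.50. The cause of the other turns was not tested. In Ngp-high cells Mmp9 was at 0.033 with DESeq2, 0.032 without the filter and 0.12 with equal cells, where Mmp8 was at 0.011. In the rest Mmp8 was at -0.040 with the unnamed clusters, -0.052 with both changes and -0.0092 with equal cells. In other myeloid-like cells Lcn2, at 0.00, was at -0.0028 with median of ratios scaling, -0.040 with DESeq2, -0.038 with equal cells, -0.40 with doublets kept, -1.89 with the granule genes in the clustering, -0.75 at resolution 2, -0.44 without alveolar macrophage-like cells and -0.58 without Ngp-high cells. Wfdc21 was at 0.23 there without alveolar macrophage-like cells. Depth limited Mpo, Elane and the trio outside the Ngp-high cells, which rest on few UMIs.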
